A study of Mus musculus with 9 samples.

Results

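Tuft cells are rare chemosensory cells of the intestinal epithelium that detect luminal metabolites with the signalling cascade of taste cells. Their specification requires the POU-domain factor Pou2f3. A receptor, such as the succinate receptor Sucnr1, acts through a G protein (the gustducin α subunit Gnat3 with Gng13) on the phospholipase Plcb2, the released calcium opens the cation channel Trpm5, and the cell secretes effectors that include interleukin-25 (Il25), which activates type 2 innate lymphoid cells. The 10 genes followed here, chosen by name, are those 7 genes and Gfi1b, Dclk1 and Avil, and they were looked up by symbol among the 29288 genes of a count table. Of the 10 genes, 9 had a row in that table and 6 passed the filter on low counts (Pou2f3, Gfi1b, Dclk1, Avil, Plcb2 and Trpm5). Gng13, Sucnr1 and Il25 fell below the filter, and Gnat3 was not analysed here.

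RNA was sequenced from intestinal epithelial cells (IECs) of female wild-type C57BL/6J mice. They came from crypts of the proximal small intestine and were sorted as live cells positive for EpCAM and negative for CD45, CD31 and Ter119. Control mice received an intraperitoneal injection of PBS and were sampled after 18 h. The 18h-αGal and 72h-αGal mice received 2 µg α-galactosylceramide (αGalCer), the lipid antigen that activates natural killer T (NKT) cells, and were sampled at the time their name gives. Each group held 3 replicates, and the labels give neither the age of the mice nor a batch. Controls were taken at 18 h only, so that at 72 h αGalCer and time of sampling cannot be told apart. The whole crypt epithelium was sequenced, so for a gene of a rare cell type fewer cells and less RNA per cell cannot be told apart.

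Libraries held 8887861 counts (control replicate 3) to 32722293 counts (control replicate 1). A floor of 3 counts per library corresponded to 0.0917 to 0.338 CPM (counts relative to the library total), and floors of this kind cover counting error only. Epithelial defining markers (7 of 7 in the table, Epcam among them) summed to between 84480 and 124730 normalised counts per library. Markers of the cell types that the sort removes had summed normalised counts of 399 to 931 for myeloid and mast cells, 84 to 256 for T and NK cells, 62 to 175 for erythroid and megakaryocytic cells, 20 to 93 for B and plasma cells and 19 to 93 for endothelial and stromal cells. The myeloid sum, most of it the counts of Cd68, was thus as large as the counts of single tuft genes such as Avil. Values of single genes are normalised counts, that is, raw counts divided by 1 size factor per library. Differences between groups were tested with edgeR's quasi-likelihood test, and genes with an adjusted p (Benjamini-Hochberg over 18933 genes) under 0.05 are called.

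Regulatory sequence upstream of the genes is shown for the members called in a comparison (Avil, Plcb2 and Trpm5) and for Sucnr1, whose window was the only member window with a full octamer. The octamer ATGCAAAT is the motif bound by POU-domain factors, the family of Pou2f3. RefSeq windows of GRCm38.p6 were found for 8 of the 10 members, with 10 windows in all, since Dclk1 and Gng13 have more than 1 annotated start. Each sequence is the 250 bases before the start, given 5′ to 3′ on the strand of the gene. Capitals mark ATGCAAAT or its first 7 bases, ATGCAAA, on either strand, the shorter form having been added after the windows were read. The windows lie at chr10:127000459-127000708 (Avil, plus strand), chr2:118728439-118728688 (Plcb2, minus strand), chr7:143094643-143094892 (Trpm5, minus strand) and chr3:60081619-60081868 (Sucnr1, plus strand).
Avil: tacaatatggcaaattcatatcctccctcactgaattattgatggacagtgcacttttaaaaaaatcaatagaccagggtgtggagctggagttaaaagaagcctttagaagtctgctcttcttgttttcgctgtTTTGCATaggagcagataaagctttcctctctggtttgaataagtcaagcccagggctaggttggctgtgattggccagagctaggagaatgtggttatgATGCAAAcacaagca
Plcb2: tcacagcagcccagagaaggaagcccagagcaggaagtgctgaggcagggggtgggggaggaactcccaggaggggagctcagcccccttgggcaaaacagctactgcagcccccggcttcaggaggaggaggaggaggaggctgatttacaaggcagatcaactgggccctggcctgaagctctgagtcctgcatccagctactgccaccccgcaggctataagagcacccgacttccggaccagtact
Trpm5: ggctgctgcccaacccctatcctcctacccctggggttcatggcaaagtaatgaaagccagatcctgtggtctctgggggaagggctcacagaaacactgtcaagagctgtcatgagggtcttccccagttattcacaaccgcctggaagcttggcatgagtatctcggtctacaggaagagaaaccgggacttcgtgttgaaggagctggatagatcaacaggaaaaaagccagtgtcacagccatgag
Sucnr1: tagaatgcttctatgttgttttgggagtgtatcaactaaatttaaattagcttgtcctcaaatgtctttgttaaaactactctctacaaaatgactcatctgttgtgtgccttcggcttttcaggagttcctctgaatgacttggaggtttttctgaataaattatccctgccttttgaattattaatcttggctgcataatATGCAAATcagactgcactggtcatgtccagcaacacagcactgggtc

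The octamer was found in the Sucnr1 window, where it began 48 bases before the start, and in 1.6% of 32851 windows of the same length. The Avil window held the 7-base form on each strand, at 15 bases before the start as printed and at 115 bases on the reverse strand. The 7-base form, which includes each full octamer, occurred in 4.12% of all windows and in 2 of the 10 member windows. The Plcb2 and Trpm5 windows held neither form.

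The first question was how much of each gene the sorted epithelium held. Levels between genes were compared as FPKM, that is, raw counts divided by the scaled library total and by the length of the canonical transcript. The scaled total is the library total multiplied by the TMM scaling factor of the library. Trpm5, the calcium-activated cation channel at the end of the taste cascade, had the highest level of the 9 genes in each of the 9 libraries, with 17.1 ± 2.96 (SD, n = 3) in controls. Dclk1, a microtubule-associated kinase used as the standard tuft cell marker, had a control level of 8.19 ± 3.03 FPKM. Avil, the actin-bundling protein advillin, had 6.44 ± 1.94 FPKM and Pou2f3 6.16 ± 3.3 FPKM. The control levels of Dclk1, Avil, Pou2f3 and Plcb2 (4.37 ± 1.67 FPKM) lay within the spread of their neighbours in this order. The place of Dclk1 depended on the length used. Divided by the union of its exons (21795 bases, against 8110 bases for the canonical transcript) its control level was 3.05 FPKM, below the 4.85 FPKM of Pou2f3 and the 3.43 FPKM of Plcb2, whereas Trpm5 remained highest at 11.0 FPKM. Gfi1b, a zinc-finger repressor of tuft cells that also acts in erythroid and megakaryocytic cells, had 0.628 ± 0.576 FPKM by canonical length.

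**Figure D1:**
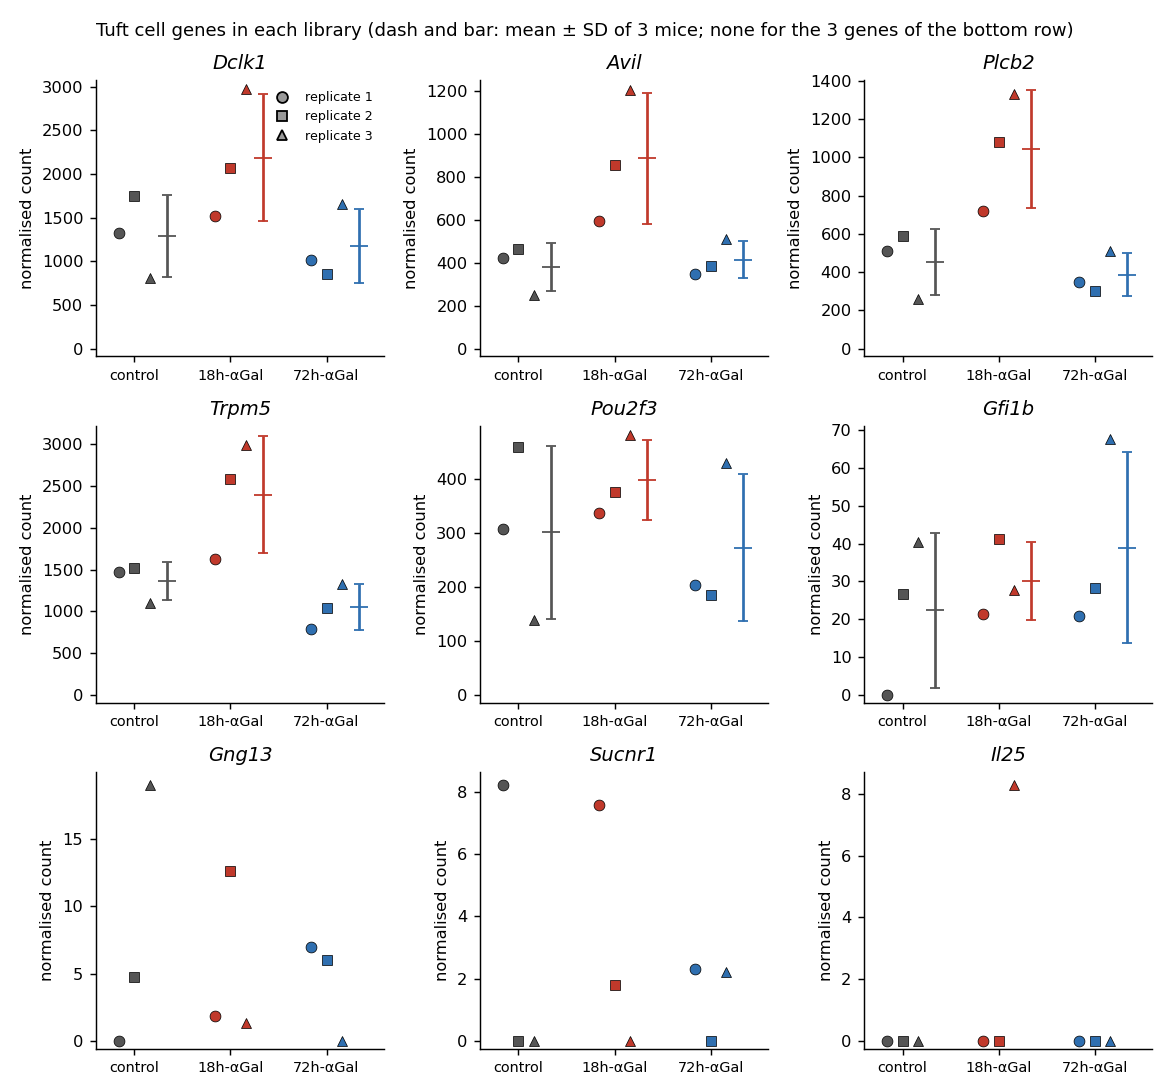
Normalised counts of the 9 genes with a row in the count table in each of the 9 libraries, grouped as control, 18h-αGal and 72h-αGal on the x axis. Points are libraries, with the shape giving the replicate number, and the dash with bar is the mean ± SD of 3 mice for the 6 tested genes. The 18h-αGal points of Avil, Plcb2 and Trpm5 all lie above the control points, while those of Dclk1, Pou2f3 and Gfi1b overlap with them.

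Of the lineage factors, neither was called in any comparison. Pou2f3 (ENSMUSG00000032015, GRCm39 chr9:43035228-43121666, minus strand) had 307, 458 and 138 normalised counts in control replicates 1 to 3, 337, 375 and 480 in 18h-αGal, and 203, 184 and 429 in 72h-αGal. The groups overlapped, and the control values alone spanned most of the range. At 18 h the difference from control was 0.38 ± 0.412 (log2 fold change ± SE), with an adjusted p of 0.671 by edgeR's quasi-likelihood test. It was 0.80 without control replicate 2 and 0.054 without control replicate 3. Gfi1b (ENSMUSG00000026815, GRCm39 chr2:28499462-28511994, minus strand) had 0, 26.6 and 40.4 normalised counts in controls, 21.4, 41.3 and 27.6 at 18 h, and 20.9, 28.2 and 67.7 at 72 h. Its 0 was in control replicate 1, the deepest library. Its log2 fold change at 18 h was 0.52 ± 1.03 (adjusted p = 0.836, edgeR quasi-likelihood test), and it turned to -0.13 without control replicate 1. Erythroid and megakaryocyte markers, of which 3 of 9 had a row, summed to 114 to 175 normalised counts in controls, 62 to 86 at 18 h and 109 to 119 at 72 h. Their part in the Gfi1b values was not tested.

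The kinase and cytoskeletal markers were Dclk1 and Avil. Dclk1 (ENSMUSG00000027797, GRCm39 chr3:55149618-55446493, plus strand) had 1324, 1742 and 804 normalised counts in controls, 1520, 2071 and 2967 at 18 h, and 1011, 854 and 1653 at 72 h. The highest value was that of 18h-αGal replicate 3 and the lowest that of control replicate 3, while the groups overlapped. The difference between 18h-αGal and control was 0.75 ± 0.374 on the log2 scale (95% interval -0.11 to 1.62, adjusted p = 0.308, edgeR quasi-likelihood test), and 0.48 without 18h-αGal replicate 3. The interval thus holds changes of the size seen for Avil as well as none.

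Avil (ENSMUSG00000025432, GRCm39 chr10:126836578-126856863, plus strand) rose at 18 h. It had 422, 463 and 252 normalised counts in controls, 597, 858 and 1206 in 18h-αGal, and 346, 387 and 511 in 72h-αGal. All 3 libraries at 18 h lay above all 6 others. The increase was 2.31-fold (log2 fold change 1.21 ± 0.273, adjusted p = 0.0189, edgeR quasi-likelihood test). Without control replicate 1 its adjusted p was 0.0673, without 18h-αGal replicate 2 it was 0.071 and without 18h-αGal replicate 3 it was 0.0515, with log2 fold changes of 1.29, 1.23 and 0.93. On the opposite strand, exons of Tsfm overlap 4.86% of the exon length of Avil.

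Among the taste transduction genes, Plcb2 (ENSMUSG00000040061, GRCm39 chr2:118537979-118559111, minus strand), which releases inositol trisphosphate downstream of the G protein, rose at 18 h. Normalised counts were 511, 588 and 262 in controls, 721, 1078 and 1333 in 18h-αGal, and 348, 301 and 512 in 72h-αGal. The 18h-αGal libraries again lay above all others. The increase was 2.27-fold (log2 fold change 1.18 ± 0.314, adjusted p = 0.0484, edgeR quasi-likelihood test), which is close to the threshold. The call was lost without control replicate 1 (adjusted p = 0.12), 18h-αGal replicate 2 (0.154), 18h-αGal replicate 3 (0.123), 72h-αGal replicate 1 (0.0835) or 72h-αGal replicate 2 (0.0545), with log2 fold changes of 0.98 to 1.28. It was also lost with upper quartile scaling (0.0669), without a filter (0.107) and with only the 2 groups compared (0.0638).

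Trpm5 (ENSMUSG00000009246, GRCm39 chr7:142622890-142648379, minus strand) had 1476, 1521 and 1105 normalised counts in controls, 1622, 2581 and 2994 in 18h-αGal, and 787, 1037 and 1334 in 72h-αGal. The 18h-αGal group did not overlap with either of the others, although its replicate 1 was only slightly above the highest control. The difference from control at 18 h was 0.81 ± 0.239 (log2, 95% interval 0.29 to 1.33) and did not pass the adjustment over all genes (adjusted p = 0.0717, edgeR quasi-likelihood test). It was called by DESeq2 (adjusted p = 0.0133), and by edgeR's quasi-likelihood test without 18h-αGal replicate 1 (adjusted p = 0.0148) or 72h-αGal replicate 3 (0.0482). Exons of Tssc4 on the opposite strand overlap 4.94% of the exon length of Trpm5.

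**Figure D2:**
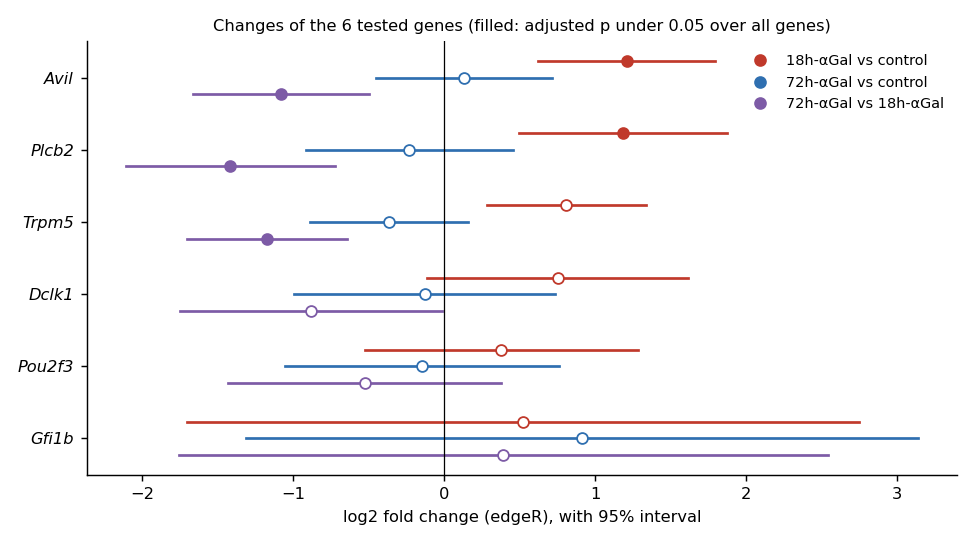
Log2 fold changes of the 6 tested genes from edgeR (x axis), with bars for the 95% interval, for the 3 comparisons given by colour. Filled points have an adjusted p under 0.05 over all genes. Avil and Plcb2 are filled in the 18h-αGal comparison with control, and Avil, Plcb2 and Trpm5 in that of 72h-αGal with 18h-αGal, with no filled point at 72h-αGal against control.

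The remaining members were at the limit of detection. Gng13 (ENSMUSG00000025739, GRCm39 chr17:25936145-25938380, plus strand), the γ subunit of the taste G protein, had 0, 5 and 8 raw counts in controls, 3, 14 and 1 in 18h-αGal, and 6, 6 and 0 in 72h-αGal, and Chtf18 on the opposite strand covers 43.8% of its exon length. Sucnr1 (ENSMUSG00000027762, GRCm39 chr3:59989283-59994987, plus strand) had 14, 0 and 0 raw counts in controls, 12, 2 and 0 at 18 h, and 2, 0 and 3 at 72 h. Il25 (ENSMUSG00000040770, GRCm39 chr14:55170152-55173294, plus strand) had 6 raw counts, all in 18h-αGal replicate 3, and 0 in the other 8 libraries. Most of its exon length (69%) overlaps the long non-coding RNA Gm62784 on the opposite strand. Of the 27 values of these 3 genes, those above the floor of 3 counts were scattered over all 3 groups. A difference between groups was not detectable for them at this depth, and a fit without the filter called none of them (adjusted p of 0.426 to 1, edgeR's quasi-likelihood test). The succinate receptor and the secreted effector were thus near or at 0 in the same libraries in which the channel Trpm5 had at least 787 normalised counts each.

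Of the 6 tested genes, 2 were called higher at 18 h (Avil and Plcb2), against 3.27% of all 18933 genes tested, and 0 were called lower, against 2.69% of all genes. Without control replicate 1, 18h-αGal replicate 2 or 18h-αGal replicate 3 the number called was 0, and without the shallowest library, control replicate 3, it was 2. Of the genes called at 18 h, 54.9% were higher, and 41.7% with upper quartile scaling. The 18h-αGal libraries lay above all controls for 3 of the 6 genes (Avil, Plcb2 and Trpm5) and for 11.5% of all genes. From 18 h to 72 h, 3 of the 6 genes fell (Avil, Plcb2 and Trpm5), against 6.04% of all genes called lower, and 0 were called higher, against 4.18% of all genes. The higher genes made up 40.9% of these calls, and 54.7% with upper quartile scaling. Trpm5 fell by 1.17 ± 0.241 on the log2 scale (adjusted p = 0.0109), Plcb2 fell by 1.41 ± 0.315 (adjusted p = 0.016) and Avil fell by 1.08 ± 0.271 (adjusted p = 0.0224, all by edgeR's quasi-likelihood test). Dclk1 differed by -0.88 ± 0.374 (adjusted p = 0.199) and Pou2f3 by -0.53 (adjusted p = 0.493). The same 3 genes had all 72h-αGal libraries below all 18h-αGal libraries, as had 16.3% of all genes. This comparison uses the same 18h-αGal libraries as that with control, so the fall is not independent of the rise.

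The fall at 72 h depended on single libraries. Without 18h-αGal replicate 2 none of the 3 genes was called by edgeR's quasi-likelihood test (adjusted p of 0.0698 for Avil, 0.0622 for Plcb2 and 0.0504 for Trpm5). Without 18h-αGal replicate 3, 72h-αGal replicate 1 or 72h-αGal replicate 2, Trpm5 alone was called, with adjusted p of 0.0819, 0.0993 and 0.0828 for Avil and 0.0534, 0.0756 and 0.0622 for Plcb2. The direction was the same in each of these fits. DESeq2 also called Dclk1 lower at 72 h than at 18 h (log2 fold change -0.90, adjusted p = 0.0173).

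At 72 h none of the 6 genes was called against control by edgeR's quasi-likelihood test, in which 0.0264% of all genes were called in either direction. The number of members at an unadjusted p under 0.05 was 0 by this test and by DESeq2. Log2 fold changes were -0.36 for Trpm5, -0.23 for Plcb2, 0.13 for Avil, -0.13 for Dclk1, -0.15 for Pou2f3 and 0.91 for Gfi1b. The 95% intervals ran from -0.45 to 0.72 for Avil, from -0.92 to 0.46 for Plcb2 and from -0.89 to 0.16 for Trpm5.

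To describe whether the genes kept their proportions, counts were expressed as a percentage of the Dclk1 counts of the same library, a measure chosen after the values were seen. Avil amounted to 31.8, 26.6 and 31.4% of Dclk1 counts in controls, 39.3, 41.4 and 40.7% at 18 h, and 34.2, 45.3 and 30.9% at 72 h. Plcb2 amounted to 38.6, 33.8 and 32.5% in controls, 47.4, 52.1 and 44.9% at 18 h, and 34.4, 35.2 and 31.0% at 72 h. For both, the 18 h values lay above all control values, with an exact two-sided permutation p of 0.1, the smallest that 3 against 3 can give. Values that did not overlap in this direction were found for 0.644% of all genes set against Dclk1 in the same way. Dclk1 was itself higher at 18 h (log2 fold change 0.75 against control, not called), which lowers the ratios of other genes then. The shares given for these ratios thus depend on the choice of Dclk1 as denominator. Plcb2 also fell back without overlap from 18 h to 72 h (exact permutation p = 0.1), as did 0.882% of all genes. Gfi1b, with few counts, amounted to 0, 1.53 and 5.03% in controls, 1.41, 2.0 and 0.93% at 18 h, and 2.06, 3.31 and 4.1% at 72 h. It moved the other way from 18 h to 72 h without overlap (exact permutation p = 0.1), as did 34.2% of all genes.

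Trpm5 amounted to 111, 87.3 and 138% of Dclk1 counts in controls, 107, 125 and 101% at 18 h, and 77.8, 121 and 80.7% at 72 h (exact permutation p = 1 for 18 h against control and 0.3 for 72 h against 18 h). The groups overlapped, although 2 of the 3 libraries at 72 h lay below all control and 18h-αGal libraries. Pou2f3 amounted to 23.2, 26.3 and 17.2% in controls, 22.1, 18.1 and 16.2% at 18 h, and 20.0, 21.5 and 26.0% at 72 h, and its groups overlapped. Ratios of 5 genes were compared in 3 ways, and since no p can lie below 0.1 with 3 against 3, none can pass a threshold of 0.05.

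**Figure D3:**
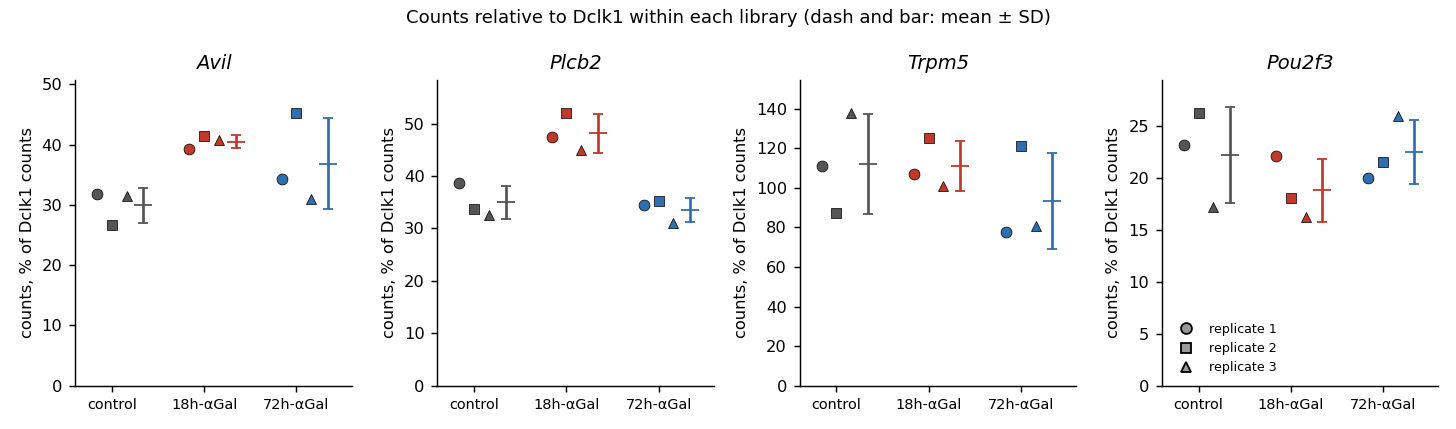
Counts of Avil, Plcb2, Trpm5 and Pou2f3 as a percentage of the Dclk1 counts of the same library (y axis, from 0) in control, 18h-αGal and 72h-αGal. Points are libraries and the dash with bar is the mean ± SD. The Avil and Plcb2 values at 18 h (39.3 to 41.4% and 44.9 to 52.1%) lie above their control values, while the Trpm5 and Pou2f3 values overlap.

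The other tuft cell marker genes were then examined from a list of 40 genes, of which 39 were in the table and 38 were tested. The list was written from general knowledge but with earlier results of these data known, so it is not independent of them. At 18 h 5 were called higher (3.27% of all genes) and 0 lower (2.69% of all genes), 32 of 38 had a positive log2 fold change, and the median was 0.60, beside -0.03 over all genes tested. Among the called genes were Pik3r5, a regulatory subunit of phosphoinositide 3-kinase γ (log2 fold change 0.84 ± 0.208, adjusted p = 0.0265), Alox5, the 5-lipoxygenase of leukotriene synthesis (1.10 ± 0.278, 0.0302), Inpp5d, an inositol phosphatase (1.34 ± 0.332, 0.0305), and Hmx3, a homeobox factor (1.64 ± 0.441, 0.0409), all by edgeR's quasi-likelihood test. Inpp5d had 230, 330 and 150 normalised counts in controls and 385, 578 and 864 at 18 h. Hmx3 had 34.1, 80.7 and 28.5 normalised counts in controls and 141, 141 and 171 at 18 h. For both, all 18h-αGal libraries lay above all controls, as for 11.5% of all genes. Without 18h-αGal replicate 2 none of these 4 genes was called (adjusted p of 0.0914 to 0.11). Pik3r5 also lost its call without control replicates 2 or 3 or 18h-αGal replicate 3 (0.0549 to 0.0888). Alox5 lost it without the same libraries or 72h-αGal replicate 1 (0.0502 to 0.0919), and Inpp5d without control replicates 1 or 3 or 18h-αGal replicate 3 (0.0511 to 0.121). Hmx3 lost it without control replicates 1 or 3, 18h-αGal replicates 1 or 3 or 72h-αGal replicate 1 (0.0645 to 0.154). With only the 2 groups compared none of the 4 was called (adjusted p of 0.0578 to 0.0749), and Hmx3 was not called with upper quartile scaling (0.0507).

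Between 18 h and 72 h, 9 of the 38 genes were called lower (6.04% of all genes) and 1 higher (4.18% of all genes), with a median of -0.76 beside 0.046 over all genes tested. Among those called by edgeR's quasi-likelihood test were Tuba1a, an α-tubulin (log2 fold change -1.57 ± 0.254, adjusted p = 0.00183), Pik3r5 (-0.97 ± 0.208, 0.00887) and Ptpn6, a tyrosine phosphatase (-0.96 ± 0.235, 0.0175). Krt18, a keratin that other epithelial cells also express, was the gene called higher (0.54 ± 0.146, 0.0297). Ptpn6 lost its call without 18h-αGal replicate 2 and without 72h-αGal replicates 1 or 2 (adjusted p of 0.0787, 0.0844 and 0.0664). Krt18 lost it without 18h-αGal replicates 2 or 3 and without 72h-αGal replicates 1 or 3 (0.112, 0.0779, 0.1 and 0.134). Tuba1a had 255, 318 and 216 normalised counts in controls, 457, 393 and 476 at 18 h, and 131, 201 and 114 at 72 h. Each of its groups stood apart from the others. The 18h-αGal libraries lay above all controls for 11.5% of all genes, and the 72h-αGal libraries below all 18h-αGal libraries for 16.3%. At 72 h against control 0 of the 38 genes were called, beside 0.0264% of all genes in either direction. At an unadjusted p under 0.05, 2 were lower and 0 higher, and the median log2 fold change was -0.046.

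**Figure D4:**
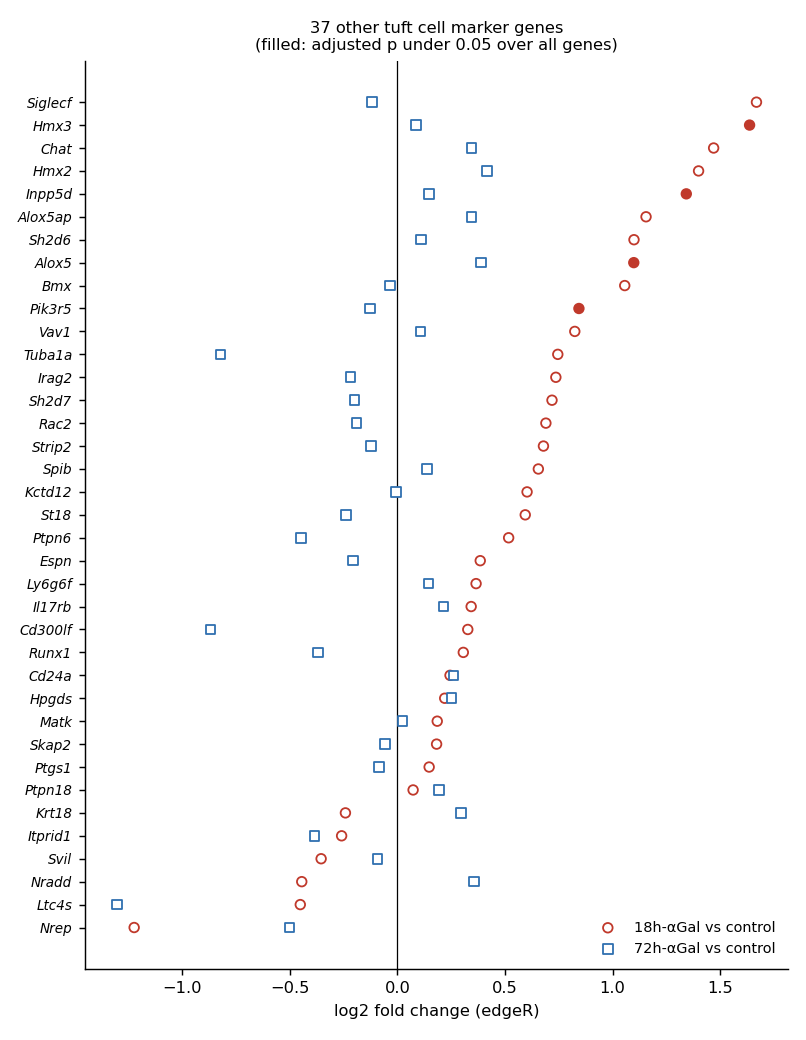
Log2 fold changes from edgeR (x axis) of 37 of the 38 tested other tuft cell marker genes, ordered by their change at 18 h, for 18h-αGal against control (circles) and 72h-αGal against control (squares). Filled points have an adjusted p under 0.05 over all genes. At 18 h 31 of the 37 genes lie above 0 and 4 are filled, and at 72 h 17 lie above 0 and none is filled.

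Several of the listed genes are also expressed by leukocytes (Inpp5d, Ptpn6 and Alox5 among them). The summed T and NK cell markers had 105 to 159 normalised counts in controls, 90 to 149 at 18 h and 84 to 256 at 72 h. The summed myeloid and mast cell markers had 399 to 573 in controls, 430 to 682 at 18 h and 726 to 931 at 72 h, and the summed B and plasma cell markers 36 to 58, 20 to 93 and 57 to 81. Most of the myeloid sum was Cd68, with means of 365 in controls, 436 at 18 h and 612 at 72 h. In the same order the means were 14.7, 14.5 and 15.3 for Csf1r and 13.4, 14.8 and 14.6 for Lyz2. Itgam had 45.1, 51.8 and 38.9, Hdc 58.2, 23.6 and 92.4, and Itgax 4.34, 1.68 and 26.0. The part of leukocyte RNA in the values of the listed genes was not tested.

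Other partners of taste transduction gave no calls. Of 20 listed genes (receptors, G protein subunits, calcium channels), 15 were in the table and 11 were tested, and 0 were called by edgeR's quasi-likelihood test in any of the 3 comparisons. Over all genes, 3.27% were called higher and 2.69% lower at 18 h, and 4.18% higher and 6.04% lower from 18 h to 72 h. At 72 h against control 0.0264% were called in either direction. A count of 0 among 11 is near these shares. At an unadjusted p under 0.05, 1 was higher and 3 were lower at 18 h, and 4 of 11 had a positive log2 fold change, with a median of -0.079. The lowest adjusted p at 18 h was that of Trpm4, a channel related to Trpm5 (log2 fold change -0.53 ± 0.155, adjusted p = 0.058). Plcg2, another phospholipase C, had 917, 997 and 889 normalised counts in controls, 1190, 1074 and 1434 at 18 h, and 1009, 898 and 874 at 72 h (log2 fold change at 18 h 0.40 ± 0.141, adjusted p = 0.109). Ryr3, a calcium release channel, had 51.1, 51.3 and 78.5 normalised counts in controls and 17.0, 10.8 and 31.7 at 18 h (-1.60 ± 0.578, adjusted p = 0.121). Most of the counts of this list were those of Itpr3, the inositol trisphosphate receptor of taste cells that other epithelial cells also use, with 6807 ± 759 normalised counts in controls and 7508 ± 137 at 18 h.

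The epithelial side of the type 2 circuit, in which interleukin-13 from lymphoid cells acts on the epithelium, was covered by 12 genes, of which 10 were tested. At 18 h 1 of the 10 was called higher, beside 3.27% of all genes, and 0 lower, beside 2.69%. Of the 10, 7 had a positive and 3 a negative log2 fold change at 18 h, with a median of 0.375. From 18 h to 72 h 2 of the 10 were called lower, beside 6.04% of all genes. Il13ra1, a chain of the receptor for interleukin-13, was the gene called at 18 h. It had 1734, 1525 and 2774 normalised counts in controls, 3590, 4122 and 4635 at 18 h, and 1545, 1867 and 1382 at 72 h. The increase at 18 h was 1.05 ± 0.195 (log2, adjusted p = 0.008) and from 18 h to 72 h it fell by 1.36 ± 0.196 (adjusted p = 0.00132, both by edgeR's quasi-likelihood test), and each call held in all 18 alternative analyses. Retnlb, a goblet cell product induced in type 2 responses, had 1.17, 34.2 and 0 normalised counts in controls, 175, 113 and 91.1 at 18 h, and 2.32, 0 and 9.57 at 72 h. It was called for its fall from 18 h to 72 h (log2 fold change -4.84 ± 1.31, adjusted p = 0.0447, edgeR quasi-likelihood test) but not at 18 h against control (adjusted p = 0.141). That call was lost without any single library of the 18h-αGal or 72h-αGal groups (adjusted p of 0.0649 to 0.162).

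Genes of other epithelial cell types moved in the same libraries. The summed enteroendocrine markers had 8448 to 11447 normalised counts in controls, 12022 to 19342 at 18 h and 4100 to 6171 at 72 h. Of 10 genes, 2 were called higher at 18 h (Chga and Chgb), beside 3.27% of all genes. At 72 h 4 were called lower against control (Tph1, Neurod1, Chgb and Chga), of the 5 genes called in that comparison over all genes. The summed stem cell markers had 45021 to 86239 in controls, 13065 to 41461 at 18 h and 58153 to 90512 at 72 h. Of 8 genes, 1 was called lower (Rnf43), beside 2.69% of all genes, and all 8 had a negative log2 fold change. Of 7 goblet cell markers, 1 was called higher at 18 h (Agr2), beside 3.27% of all genes. Of the 7, 3 had a positive and 4 a negative log2 fold change, with a median of -0.035. All 7 Paneth cell markers had a positive log2 fold change at 18 h, with 0 called. Within the 18h-αGal group the sum of the 6 tested tuft genes was 4818, 7003 and 9007 in replicates 1 to 3, that of the enteroendocrine markers 12022, 14431 and 19342, and that of the stem cell markers 41461, 31484 and 13065. Replicate 1, with the lowest tuft sum, had the highest sum of goblet cell markers (341745, against 129910 and 119355 in the others). Among the controls the sum of the 6 tested tuft genes was 4040, 4798 and 2601 in replicates 1 to 3. In the same order, that of the enterocyte markers was 110993, 74274 and 186682. That of the stem cell markers was 72023, 86239 and 45021. The part of these shifts in the tuft cell values was not tested.

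**Figure D5:**
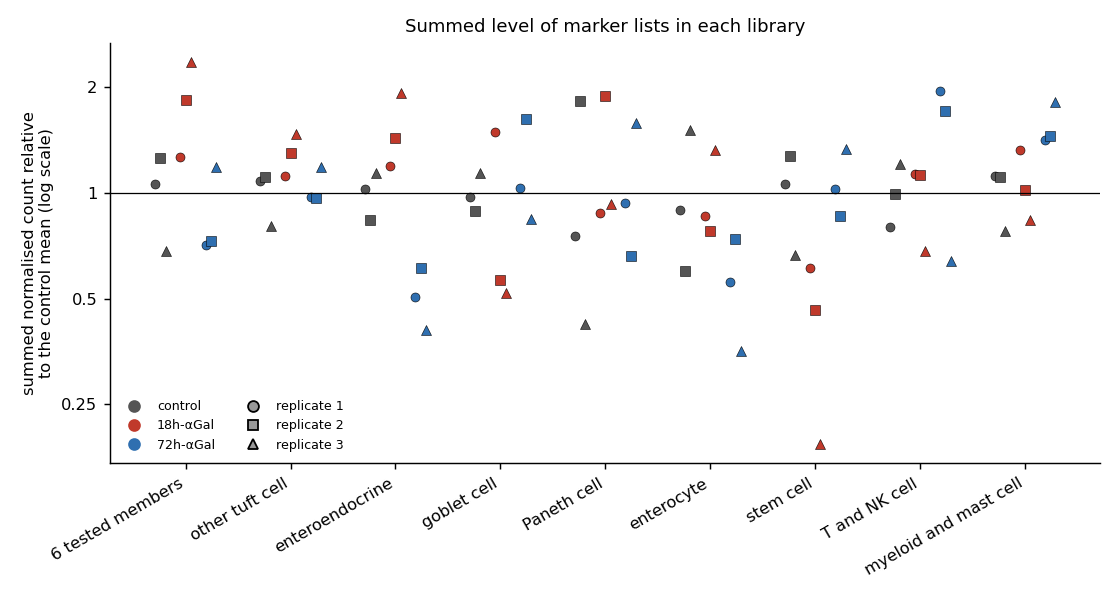
Summed normalised counts of 9 marker lists in each library, divided by the control mean of the list (y axis, log scale), with colours for groups and shapes for replicates. The tuft and enteroendocrine sums at 18 h lie above all control sums (4818 to 9007 against 2601 to 4798 for the 6 tested genes), and the stem cell sums at 18 h lie below all control sums.

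Finally, genes with a pattern like that of the 6 tested members were ranked by Pearson's r between their log2 CPM and the mean standardised level of the members over the 9 libraries, among 12912 genes with a mean of at least 50 counts. The 10 genes with the highest r were Inpp5d (0.973), Strip2 (0.97), Csnk1a1 (0.964), Kctd12 (0.961), Pygl (0.951), Spib (0.945), Slc26a10 (0.943), Rgs22 (0.943), Irag2 (0.941) and Sh2d6 (0.931). Of these, 6 are on the list of other tuft cell genes. Without control replicate 3 and 18h-αGal replicate 3, the libraries farthest from the median, r was 0.854 to 0.965. Of the 33 genes of that list among those ranked, 16 (48.5%) had an r above 0.8, beside 1.18% of all genes ranked. The list was written with earlier results of these data known, so this share is not independent of them. On deviations from the group means, in which differences between groups have no part, the highest r were those of Gm37052 (0.979), Runx1 (0.978), Cep20 (0.978), Cfi (0.97) and Rgs13 (0.97), of which Runx1 and Rgs13 are listed tuft or taste genes. The libraries share groups, depth and cell composition, so these coefficients are descriptive and carry no p.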

How the data were processed

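RNA from sorted IECs of 9 mice (3 control, 3 18h-αGal, 3 72h-αGal) was made into ribodepleted, strand-directional libraries and sequenced as 100 bp reads. The authors aligned reads with HISAT2 and counted them per gene with featureCounts of Subread, per the submitters' processing notes, which list the builds GRCm38 and mm10, whereas the methods of the study name GRCm39. The strand setting and annotation release are not given in the sources used here, so genes overlapping on opposite strands may share reads. The deposited raw counts were tested. The normalised signal that the authors deposited is a scaled raw count, with a single size factor for each library that matched that of DESeq2 to a relative difference of 8.9e-16. It is called normalised counts.

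Of 29288 gene identifiers, 28480 matched GENCODE vM39 (GRCm39), which gave symbols, positions and lengths. Promoter windows came from RefSeq (GRCm38.p6). Counts were fitted with edgeR 4.0.16 in R 4.3.3 (filterByExpr, TMM scaling, robust quasi-likelihood fit of 3 group means over all 9 libraries), which kept 18933 genes. Alternatives were RLE and upper quartile scaling, DESeq2 1.42.0, limma 3.58.1 (trend) on log2 (normalised count + 1), no filter, a filter of 10 counts in 3 libraries, 2-group fits, a replicate block, no robust shrinkage and each library left out. The scripts were tested on simulated data. The samples were treated as unpaired, since no clear pairing by replicate number was seen. Per-length levels are FPKM from raw counts. Pairs of replicates differed by more than counting error (chi-square per degree of freedom 13.1 to 42), and p-values measure the spread between these mice.

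The 10 genes and all lists were chosen with earlier results of these data known. All members are named, and of each list the genes called in a comparison, at most 5 by lowest p, or up to 3 by unadjusted p where none was called. The 10 genes most like the members, and 5 on deviations from group means, are named too. Not every gene meeting the rule is given, and 1 listed gene is not reported here by name or drawn. Itpr3, Epcam, Gnat3, Cd68, Csf1r, Lyz2, Itgam and Itgax are named as context.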

Additional observations from a re-analysis of the deposited data

Results flagged for a closer look

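Levels after αGalCer differed between 18 h and 72 h for 3 of the 6 tested genes by a direct test (edgeR's quasi-likelihood test, 3 mice per time). Both times share the same controls, which cancel out of this difference. Without controls at 72 h, αGalCer and time of sampling cannot be told apart. The test uses the 18h-αGal libraries of the rise, so it is not independent of that rise. The difference of 72 h minus 18 h was -1.08 on the log2 scale for Avil, -1.41 for Plcb2 and -1.17 for Trpm5, with adjusted p of 0.0224, 0.016 and 0.0109. In each of the 3 genes all 72h-αGal libraries lay below all 18h-αGal libraries, as in 16.3% of all genes. Over all genes, 6.04% were called lower from 18 h to 72 h. Without 18h-αGal replicate 2 none of the 3 genes was called by this test. The Trpm5 difference passed the test although its rise at 18 h did not (adjusted p = 0.0717). The cause was not tested.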

How the results depend on the processing

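Of the 18 alternative analyses, all kept the direction of Avil, Plcb2, Trpm5, Dclk1 and Pou2f3 at 18 h, and 0 members were called at 72 h against control in any. Members called higher or lower at 18 h numbered 2 in the main analysis, 1 with upper quartile scaling, 1 without a filter, 1 with only the 2 groups compared, and 0 to 3 with single libraries left out. From 18 h to 72 h, 3 members were called, and 0 to 3 with single libraries left out.

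Genes called at 18 h numbered 1128, with 1720 by DESeq2, 593 with only the 2 groups compared and 432 to 1556 with single libraries left out. At 72 h against control 5 genes were called, with 31 by DESeq2, 13 without a filter, 3 without robust shrinkage and 0 to 20 with single libraries left out. From 18 h to 72 h 1936 genes were called, with 831 to 2593 with single libraries left out. Upper quartile scaling moved the share of called genes that were higher from 54.9% to 41.7% at 18 h and from 40.9% to 54.7% between 18 h and 72 h.

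With single libraries left out, log2 fold changes crossed 0 for Gfi1b at 18 h (-0.13 to 1.23), for Pou2f3 (-0.65 to 0.28), Dclk1 (-0.47 to 0.15) and Avil (-0.074 to 0.30) at 72 h against control, and for Gfi1b from 18 h to 72 h (-0.29 to 0.70), none of them called.

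Same-numbered samples deviated from their group means with correlations of -0.15 to 0.115, so the numbers do not pair the samples. A fit with the replicate number as a block called 781 genes and 1 member at 18 h, 1 gene at 72 h against control, and 1371 genes and 2 members from 18 h to 72 h. In the block fit the adjusted p of Plcb2 was 0.123 at 18 h and 0.0508 from 18 h to 72 h. The cause of these differences was not tested. Depth limits Gng13, Sucnr1 and Il25, which were tested only in the fit without a filter and not called there.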
